A study of Mus musculus with 18 samples.

Results

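Chemokines and their receptors were examined in mouse medulloblastomas, tumours of the cerebellum, as 48 genes of the 19938 measured. They were all genes with a symbol made of Ccl, Cxcl, Ccr or Cxcr and a number, with or without a final a or b, plus Cx3cl1. Only probe sets with 1 gene symbol were used, and the brightest on average represented a gene that had several. The 48 comprised 33 ligands (19 of the CC class, 13 of the CXC class and Cx3cl1) and 15 receptors (9 CC and 6 CXC). Ccl19 had 5 such probe sets and Ccl25 had 2. Ccl21a, Ccl21b, Ccl27a and Ccl27b lay only on probe sets shared with other genes and were not analysed here. All 48 entered the tests, since no filter on low values was used.

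Each of 18 tumours was measured on 1 Affymetrix Mouse Gene ST 1.0 array, from RNA extracted with Trizol. The Smo tumours were GFD-Smo with a GFAP-cre driver (n = 4) and NG-Smo with an Atoh1-CreER driver (n = 4). The Ptch tumours were GFI-Ptch (n = 4), GFD-Ptch (n = 2) and NG-Ptch (n = 4). The labels leave the subtype names NG, GFD and GFI without an explanation, and the age of the mice and the exact Smo and Ptch alleles were not given in the sources used here. Smo and Ptch1 are the transducer and the receptor of Hedgehog signalling. A GFAP driver acts in neural stem cells and glia, and an Atoh1 driver in granule neuron progenitors of the cerebellum. Subtype and driver split the Smo arrays the same way and cannot be told apart. GFI-Ptch replicate 4 had progressed from an earlier tumour and grew in a female NSG host, a mouse that lacks T, B and NK cells but has myeloid cells, and it is called the transplanted tumour here. Whether replicates were separate animals is not in the labels, so p-values reflect the spread between these arrays alone.

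Chemokines are small secreted proteins that bind G protein-coupled receptors on leukocytes and guide their movement along a gradient. Inflammatory chemokines are made by macrophages, glia, endothelium and tumour cells after interferon or NF-kB signalling, whereas homeostatic ones place cells in developing and lymphoid tissue. In the cerebellum, Cxcl12 from the meninges holds granule neuron progenitors at the surface through Cxcr4, and Cx3cl1 from neurons signals to microglia through Cx3cr1.

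The arrays lay close together, with medians of 7.736 to 7.868 on the log2 scale. Replicates correlated across all genes at 0.995 to 0.998 in GFD-Smo, 0.981 to 0.989 in NG-Smo, 0.97 to 0.992 in GFI-Ptch, 0.993 in GFD-Ptch and 0.993 to 0.996 in NG-Ptch. A pair of arrays stood apart, the transplanted tumour and NG-Smo replicate 4. Their limma array weights were 0.17 and 0.26, against 0.73 to 2.79 in the others. For several results that rest on them, values without them are given as well. The level of 3 Y-linked genes went against the gender label in 3 of the 13 arrays with a label, the transplanted tumour and replicates 2 and 3 of GFD-Smo. A list of 10 granule neuron lineage genes averaged 11.31 to 11.85 in every array. The series held no other tissue to compare with, so these levels do not test the tumour label. As a rough guide to dim probe sets, 24 of the 48 chemokine and receptor genes averaged below 7.0, the 95th percentile of 1015 olfactory receptor genes, and 23 of them stayed below it in every group mean. Spread was wider than usual: 14 of the 48 (29.2%) spanned at least 1 log2 unit across the arrays, against 17.2% of all genes. They were Cxcl10, Ccl8, Ccl3, Ccl6, Cxcl14, Ccl11, Cxcl16, Cxcl13, Ccl2, Cxcr4, Cxcl9, Ccl5, Ccl28 and Ccl7.

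The promoters of Cxcl10, Cxcl9, Ccl8 and Ccl17 are printed, 4 of the 7 ligands that were lower in GFD-Smo than in NG-Smo tumours. The others, Ccl2, Ccl7 and Cxcl16, had no entry in the promoter set used. The printed windows run from 250 bases before to 50 after the transcription start, 5′ to 3′ on the gene's strand, from RefSeq on GRCm38.p6. Capitals mark matches to 5 motifs, searched on both strands. They were the core of the TATA box (TATAAA), the AP-1 site (TGANTCA) and a STAT site (TTCNNNGAA). The core of the interferon-stimulated response element was searched as GAAA and a further GAAA with any 2 bases between them. The NF-kB-like motif was GGGA, any 2 bases, T, any 1 base and CC. Cxcl10 is at chr5:92348840-92349139 on the minus strand, Cxcl9 at chr5:92328030-92328329 on the minus strand, Ccl8 at chr11:82114935-82115234 on the plus strand and Ccl17 at chr8:94810203-94810502 on the plus strand.
Cxcl10: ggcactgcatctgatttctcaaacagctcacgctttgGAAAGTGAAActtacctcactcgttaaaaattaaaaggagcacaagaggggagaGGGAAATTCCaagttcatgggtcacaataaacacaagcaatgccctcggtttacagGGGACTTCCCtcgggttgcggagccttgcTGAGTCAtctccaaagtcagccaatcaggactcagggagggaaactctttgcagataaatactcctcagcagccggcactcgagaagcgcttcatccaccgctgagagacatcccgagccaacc
Cxcl9: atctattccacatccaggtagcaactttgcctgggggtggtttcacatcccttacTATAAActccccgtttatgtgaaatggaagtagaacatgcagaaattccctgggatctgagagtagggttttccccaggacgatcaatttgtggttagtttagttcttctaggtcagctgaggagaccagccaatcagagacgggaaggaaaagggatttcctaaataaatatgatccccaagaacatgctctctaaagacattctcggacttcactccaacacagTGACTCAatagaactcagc
Ccl8: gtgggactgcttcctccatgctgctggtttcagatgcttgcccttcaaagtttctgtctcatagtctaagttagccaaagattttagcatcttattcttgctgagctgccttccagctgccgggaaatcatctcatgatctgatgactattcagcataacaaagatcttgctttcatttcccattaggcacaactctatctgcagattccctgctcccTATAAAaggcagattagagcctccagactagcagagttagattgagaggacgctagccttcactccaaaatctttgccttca
Ccl17: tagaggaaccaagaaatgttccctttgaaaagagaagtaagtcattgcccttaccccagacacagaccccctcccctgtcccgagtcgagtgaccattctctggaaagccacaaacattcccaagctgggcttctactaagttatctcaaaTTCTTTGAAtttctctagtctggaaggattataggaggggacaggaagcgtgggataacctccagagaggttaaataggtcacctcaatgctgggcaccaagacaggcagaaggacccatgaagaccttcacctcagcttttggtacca
The Cxcl10 window held the interferon-stimulated element core 213 bases before the start, NF-kB-like matches at 159 and 103 bases before it and an AP-1 match at 74. The second NF-kB-like match read on both strands, and no other matches overlapped. Cxcl9 held a TATAAA match 195 bases before the start and an AP-1 match after it, Ccl8 a TATAAA match 32 bases before it, and Ccl17 a STAT match 99 bases before it. Over 32851 RefSeq windows of 300 bases, 13.6% held the TATAAA letters, 3.44% the interferon-stimulated core, 4.01% the NF-kB-like motif, 7.81% the AP-1 motif and 8.3% the STAT motif. Among 36 windows of the 34 chemokine and receptor genes with an entry, 10, 3, 7, 6 and 3 held the motifs in that order. A match describes letters and is not a shown binding site.

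The first comparison set GFD-Smo against NG-Smo tumours. Of the 48 genes, 7 were lower in GFD-Smo and 0 higher (14.6%), against 5.31% of all genes called in this comparison and 2.49% called lower. The 7 were the monocyte attractants Ccl2 and Ccl7, the related CC ligand Ccl8, the interferon-induced T-cell attractants Cxcl9 and Cxcl10, Cxcl16, which is a membrane-bound ligand of Cxcr6, and Ccl17, a ligand of Ccr4. Changes are differences of mean log2 level with the standard error (SE), from limma fitted to all 18 arrays, and a gene was called at a Benjamini-Hochberg adjusted p under 0.05 over all 19938 genes. The median change over the 48 genes was -0.06, beside -0.01 over all genes. In tumour RNA, fewer cells of a type and less RNA per cell cannot be told apart.

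Among the 7 inflammatory CC ligands Ccl2, Ccl3, Ccl4, Ccl5, Ccl7, Ccl8 and Ccl12, 3 were called and the median change was -0.32. Ccl2, the main ligand of the monocyte receptor Ccr2, read 7.96, 7.58, 7.84 and 7.65 in the GFD-Smo arrays, against 8.71, 8.87, 8.85 and 8.72 in the NG-Smo arrays. Every GFD-Smo array lay below every NG-Smo array, by more than the spread inside either group. Ccl2 thus averaged 7.76 ± 0.18 in GFD-Smo and 8.79 ± 0.08 in NG-Smo (SD, n = 4 each), a change of -1.03 (SE 0.13, limma adjusted p = 0.0003033) or 0.49 times the NG-Smo level. Ccl7, which shares receptors with Ccl2, read 7.3, 7.54, 7.42 and 7.44 in GFD-Smo, against 8.37, 8.33, 7.8 and 7.99 in NG-Smo. The groups did not overlap, although NG-Smo spread more widely, and the change was -0.70 (SE 0.13, limma adjusted p = 0.005667). Ccl8, a ligand of Ccr2 in human and of Ccr8 in mouse, read 5.6, 5.55, 5.58 and 5.76 in GFD-Smo, against 7.66, 6.47, 6.47 and 6.8 in NG-Smo. The GFD-Smo arrays sat together at dim levels and NG-Smo replicate 1 was the highest of the 18 arrays. Its change was -1.23 (SE 0.26, limma adjusted p = 0.01199). The GFD-Smo values lay close to the olfactory receptor median of 5.49, and NG-Smo replicates 2, 3 and 4 lay below the dim guide of 7.0. The size of the Ccl8 change is thus uncertain, and it ran from -1.35 to -0.95 with single arrays left out.

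The other inflammatory CC ligands were not called. Ccl5, a T-cell attractant, read 7.59 to 7.79 in GFD-Smo and 7.91 to 8.11 in NG-Smo, without overlap, and its change was -0.32 (limma adjusted p = 0.1187). Ccl12, a mouse ligand of Ccr2, had a change of -0.22 (adjusted p = 0.07475 by limma), also with no overlap. Ccl3, a ligand of Ccr1, did not share the direction of the called genes, with 9.06 to 9.54 in GFD-Smo, 8.54 to 9.46 in NG-Smo and a change of 0.25.

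The 3 ligands of Cxcr3, a receptor of activated T and NK cells, had a median change of -0.77, with 2 of 3 called. Cxcl10 read 7.08, 7.1, 7.21 and 6.91 in GFD-Smo, against 7.96, 9.16, 8.19 and 8.03 in NG-Smo. All GFD-Smo arrays were lower, and replicate 2 of NG-Smo was well above the rest of its group. Its mean was 7.08 ± 0.12 in GFD-Smo and 8.34 ± 0.56 in NG-Smo (SD, n = 4 each), a change of -1.26 (SE 0.25, limma adjusted p = 0.006553). Cxcl9 read 6.83, 6.97, 6.91 and 6.98 in GFD-Smo, against 8.0, 7.25, 7.64 and 7.86 in NG-Smo. The change was -0.77 (SE 0.18, limma adjusted p = 0.02139) with no overlap, and all GFD-Smo values lay below the dim guide of 7.0. The third Cxcr3 ligand, Cxcl11, was dim, overlapped between the groups at 6.08 to 6.26 in GFD-Smo and 6.2 to 6.64 in NG-Smo, and was not called (-0.22, limma adjusted p = 0.1346).

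Cxcl16 had the largest measured change of the 48 genes. It read 7.49, 7.15, 7.44 and 7.28 in GFD-Smo, against 8.79, 8.81, 8.71 and 8.33 in NG-Smo, so the groups lay far apart. The means were 7.34 ± 0.15 in GFD-Smo and 8.66 ± 0.23 in NG-Smo (SD, n = 4 each), a change of -1.32 (SE 0.15, limma adjusted p = 0.0001404), or 0.4 times the NG-Smo level. The other membrane-bound ligand, Cx3cl1, read 7.9 to 8.07 in GFD-Smo and 7.84 to 7.97 in NG-Smo, with a change of 0.07. Ccl17 was the one called gene of 7 measured ligands with barrier-tissue or T-cell subset roles. It read 7.0, 6.97, 7.03 and 6.98 in GFD-Smo, against 7.48, 7.17, 7.46 and 7.52 in NG-Smo, a change of -0.41 (SE 0.10, limma adjusted p = 0.02193). The groups did not overlap, and GFD-Smo was the narrower, with its values at about the dim guide of 7.0.

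**Figure D1:**
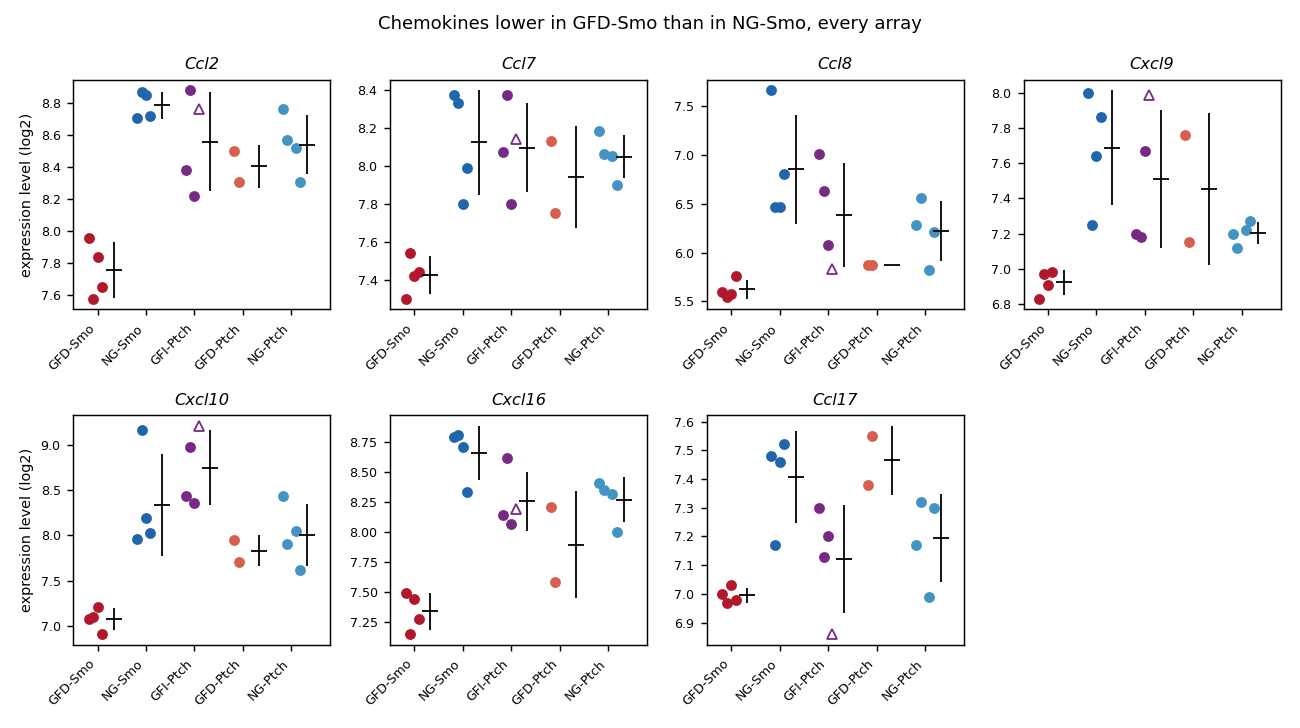
Log2 expression level (vertical axis) of the 7 ligands that were lower in GFD-Smo than in NG-Smo tumours, in the 5 groups. Points are arrays, the open triangle is the transplanted tumour, and black bars give mean ± SD; in each panel the 4 GFD-Smo arrays lie below the 4 NG-Smo arrays, with Ccl2 at 7.58 to 7.96 against 8.71 to 8.87.

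No ligand was called among the 5 neutrophil-attracting CXC ligands (median change 0.00), the 5 ligands of Ccr1 and Ccr3, or the 4 homeostatic ligands. Ccl11, an eosinophil attractant, did not overlap between GFD-Smo (7.78 to 7.88) and NG-Smo (8.22 to 8.98), yet its change of -0.65 was not called (limma adjusted p = 0.1017). Ccl6, a mouse ligand of Ccr1, spread from 7.63 to 8.17 in GFD-Smo and from 7.81 to 9.43 in NG-Smo, with a change of -0.53. Cxcl12 and Cxcl14 had changes of 0.17 and 0.23.

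None of the 9 CC receptors and none of the 6 CXC receptors was called, and their changes ran from -0.31 for Ccr1 and Ccr2 to 0.46 for Cxcr4. Ccr2, which binds Ccl2, Ccl7 and Ccl12, read 5.48, 5.54, 5.47 and 5.57 in GFD-Smo, against 6.22, 5.66, 5.72 and 5.68 in NG-Smo. The groups were apart, but both lay at dim levels and the change had a limma adjusted p of 0.1753. Cxcr4, the Cxcl12 receptor of granule neuron progenitors, read 11.01, 10.93, 10.96 and 11.04 in GFD-Smo, against 10.14, 10.27, 10.79 and 10.92 in NG-Smo. It was the only one of the 48 genes whose GFD-Smo arrays all lay above the NG-Smo arrays, while 15 genes lay wholly below, and over all genes the shares were 5.99% above and 6.59% below. The Cxcr4 change was not called (0.46, SE 0.17, limma adjusted p = 0.1508).

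Some marker genes of macrophages were lower in GFD-Smo too, while 2 of the 12 measured had a change above 0. Of 12 measured monocyte and macrophage markers, 4 were called lower in GFD-Smo and 0 higher, with a median change of -0.22. Over all genes 2.49% were called lower and 2.81% higher, the shares to set beside each list here. The list's mean level was 7.11 to 7.39 in GFD-Smo and 7.7 to 7.9 in NG-Smo. Cybb, the catalytic subunit of the phagocyte oxidase, averaged 8.67 ± 0.24 in GFD-Smo and 10.42 ± 0.12 in NG-Smo (SD, n = 4 each; change -1.75, limma adjusted p = 6.48e-06). Lyz2, the lysozyme of macrophages and neutrophils, had a change of -1.79 (limma adjusted p = 0.0005583), Ms4a7 of -1.48 and the pan-leukocyte gene Ptprc of -1.10. Of 11 microglia markers 1 was called higher and 0 lower, while 7 had a change above 0 and the median change was 0.2. Their mean levels were 8.74 to 8.82 in GFD-Smo and 8.5 to 8.79 in NG-Smo. The microglial Csf1r and Cx3cr1 had changes of 0.20 and -0.03. Of 14 T and NK cell markers 0 were called, with mean levels of 6.29 to 6.37 in GFD-Smo and 6.36 to 6.54 in NG-Smo. Of 10 neutrophil markers 1 was lower, with mean levels of 6.23 to 6.27 in GFD-Smo and 6.3 to 6.49 in NG-Smo. The T and NK cell and neutrophil lists both averaged below the dim guide of 7.0, so their few calls say little about those cells. Of 10 astrocyte markers 6 were higher, with mean levels of 10.99 to 11.1 in GFD-Smo and 9.53 to 9.91 in NG-Smo. Of 11 pericyte and fibroblast markers 4 were higher, with mean levels of 9.07 to 9.37 in GFD-Smo and 8.86 to 9.23 in NG-Smo, as were 1 of 11 endothelium and 1 of 9 meninges and choroid plexus markers. The part of these cell types in the chemokine differences was not tested.

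**Figure D2:**
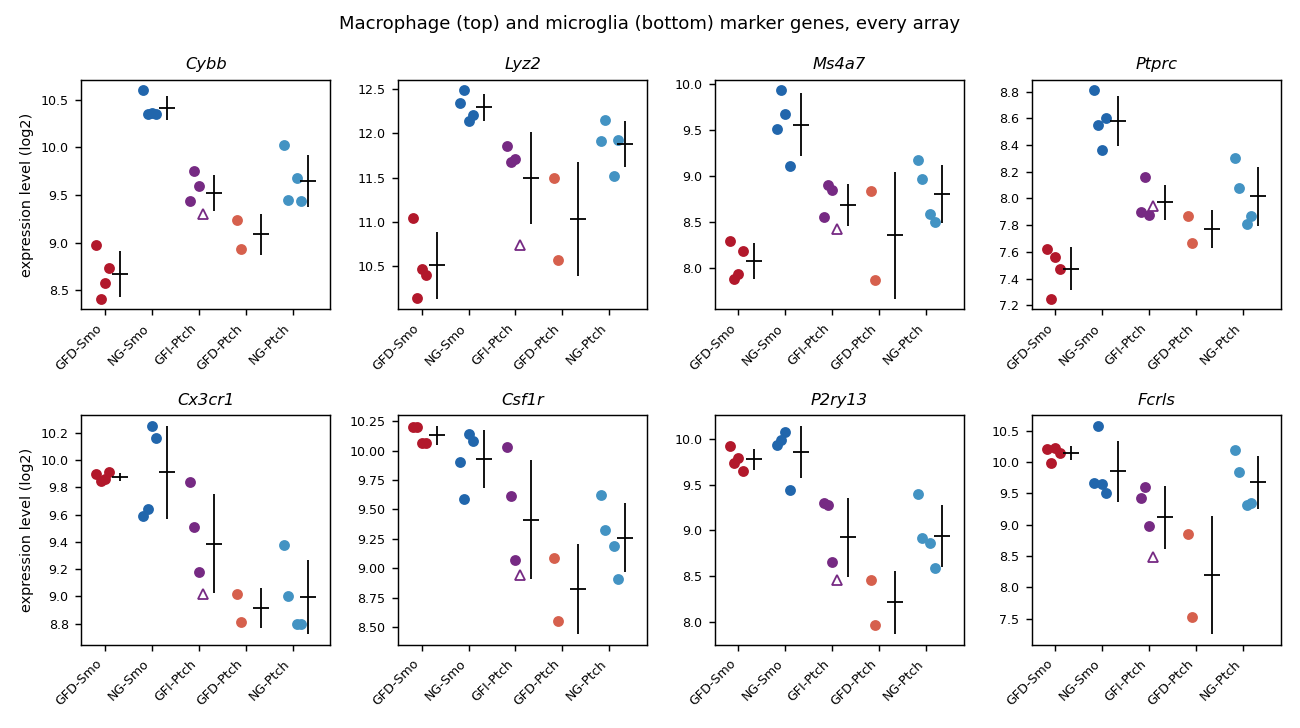
Log2 expression level (vertical axis) of 4 macrophage or leukocyte markers (top) and 4 microglia markers (bottom) in the 5 groups, as points per array (open triangle, transplanted tumour) with mean ± SD. Cybb and Ptprc are lower in GFD-Smo than in NG-Smo, while Csf1r and Cx3cr1 overlap between these groups; their lowest arrays are a GFD-Ptch array for Csf1r (8.55) and NG-Ptch arrays for Cx3cr1 (8.8).

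Genes that induce or relay chemokine signals were given as lists beside the ligands. Of 17 measured inducers of chemokine transcription 5 were lower and 1 higher in GFD-Smo, against 2.49% and 2.81% of all genes. Il1a, an alarm cytokine, averaged 6.80 ± 0.13 in GFD-Smo and 8.13 ± 0.28 in NG-Smo (SD, n = 4 each), a change of -1.33 (limma adjusted p = 0.004649). The lipopolysaccharide receptor Tlr4 changed by -1.01, Il1b by -0.58, the adaptor Myd88 by -0.47 and Irf5 by -0.29, and the interferon receptor subunit Ifngr1 by 0.54 (limma adjusted p = 0.02049). Ifng, the inducer of the Cxcr3 ligands, had a change of 0.01. Of 24 genes of chemokine receptor signalling, Vav1 (-0.53, limma adjusted p = 0.001547) and Dock2 (-0.53), both exchange-factor genes of leukocytes, were lower. Of 12 other chemokine ligands and receptors, Ccrl2, a chemerin-binding receptor, was lower (-0.28).

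Leaving out each of the 18 arrays in turn kept the calls of Ccl2, Ccl7, Ccl8, Cxcl10 and Cxcl16, with a highest adjusted p of 0.03876 for Ccl8. Ccl17 lost its call without any single Smo array other than NG-Smo replicate 2 (adjusted p = 0.05011 to 0.06473), and Cxcl9 without GFD-Smo replicate 1, 2 or 3 or NG-Smo replicate 1 or 4 (0.05283 to 0.06707). Without the transplanted tumour, which is in neither group but in the shared spread, 11 were called lower, adding Ccl5, Ccl11, Ccl19 and Ccr1. Ccr1 was called without NG-Smo replicate 4 (adjusted p = 0.02932), Ccl12 without NG-Ptch replicate 4 (adjusted p = 0.04978) and Cxcl11 without NG-Smo replicate 2 (-0.29, adjusted p = 0.04192).

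On chromosome 11, Ccl2, Ccl7, Ccl11, Ccl12, Ccl8 and Ccl1 follow each other with no other protein-coding gene between them in the RefSeq gene order, and their changes in that order were -1.03, -0.70, -0.65, -0.22, -1.23 and 0.02. The other chromosome 11 run, Ccl5, Ccl9, Ccl6, Ccl3 and Ccl4, held 0 called genes. On chromosome 8, the neighbours Ccl22, Cx3cl1 and Ccl17 had changes of -0.16, 0.07 and -0.41.

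The same subtypes were compared in Ptch tumours, where GFD-Ptch differed from NG-Ptch in 0 called genes of the 48, against 0.01% of all genes, and 7 of the 48 and 3375 of all genes had an unadjusted limma p under 0.05. This comparison had 2 arrays on one side. The 3 Y-linked genes averaged 9.84 in each GFD-Ptch array and 5.4 to 5.47 in the NG-Ptch arrays. Subtype and sex by these genes thus split the arrays the same way and cannot be told apart here. Ccl2 read 8.5 and 8.31 in GFD-Ptch, against 8.76, 8.57, 8.52 and 8.31 in NG-Ptch, so the groups overlapped. Cxcl16 read 8.21 and 7.58 in GFD-Ptch, against 8.41, 8.35, 8.32 and 8.0 in NG-Ptch, with the GFD-Ptch arrays far from each other. Ccl17 read 7.38 and 7.55 in GFD-Ptch, against 7.17, 7.32, 6.99 and 7.3 in NG-Ptch, above all of them. Ccl25, the thymus and gut ligand of Ccr9, had the smallest adjusted p. It read 8.88 and 8.95 in GFD-Ptch, against 8.44, 8.56, 8.56 and 8.51 in NG-Ptch (change 0.40, SE 0.12, limma adjusted p = 0.1718), and it was called without the transplanted tumour (adjusted p = 0.03059). The GFD-Ptch arrays lay wholly above NG-Ptch for 14 of the 48 genes and wholly below for 2, where all genes gave 20.6% and 14%, or 34.6% together.

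The difference between the models was tested directly, as GFD minus NG in Smo less the same in Ptch. Its Smo part carries the driver, and its Ptch part the split by Y-linked genes. Of the 48 genes 3 had a lower value in Smo and 0 a higher one (6.25%), against 3.81% of all genes, 2.4% higher and 1.4% lower. Ccl17 had a difference of -0.68 (SE 0.16, limma adjusted p = 0.02609), made of -0.41 in Smo and 0.27 in Ptch. For Ccl2 it was -0.90 (SE 0.21, limma adjusted p = 0.02884), made of -1.03 in Smo and -0.13 in Ptch. For Cxcl16 it was -0.94 (SE 0.24, limma adjusted p = 0.04352), made of -1.32 in Smo and -0.38 in Ptch. The differences of Cxcl10 (-1.08), Cxcl9 (-1.02), Ccl8 (-0.88) and Ccl7 (-0.59) were not called. Of 12 monocyte and macrophage markers 2 had a lower difference, of 10 astrocyte markers 8 had a higher one (median 2.12) and of 9 meninges and choroid plexus markers 1 did. The part of those cells in it was not tested.

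With GFD-Smo replicate 2 left out, 0 of the 3 differences were called. With the gender label as a covariate 0 of the 3 were (limma adjusted p = 0.1011 to 0.1651). That label was ND in 5 arrays and went against the Y-linked genes in 3, so it is not an adjustment for sex. The call of Ccl17 was lost as well without NG-Ptch replicate 1 or GFD-Ptch replicate 2, Ccl2 without NG-Ptch replicate 2 or 5, either GFD-Ptch array or GFD-Smo replicate 4, and Cxcl16 without any single array of these 4 groups other than GFD-Ptch replicate 2 or NG-Smo replicate 4 (adjusted p up to 0.1944). Cxcl9 was called without the transplanted tumour (adjusted p = 0.02485) or NG-Smo replicate 2 (-1.16, adjusted p = 0.0256). Without the transplanted tumour Ccl5 (-0.4, limma adjusted p = 0.02693) and Ccl25 (-0.37, limma adjusted p = 0.02903) were called too. Cxcl11 was called without NG-Smo replicate 2 (-0.48, limma adjusted p = 0.03401).

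**Figure D3:**
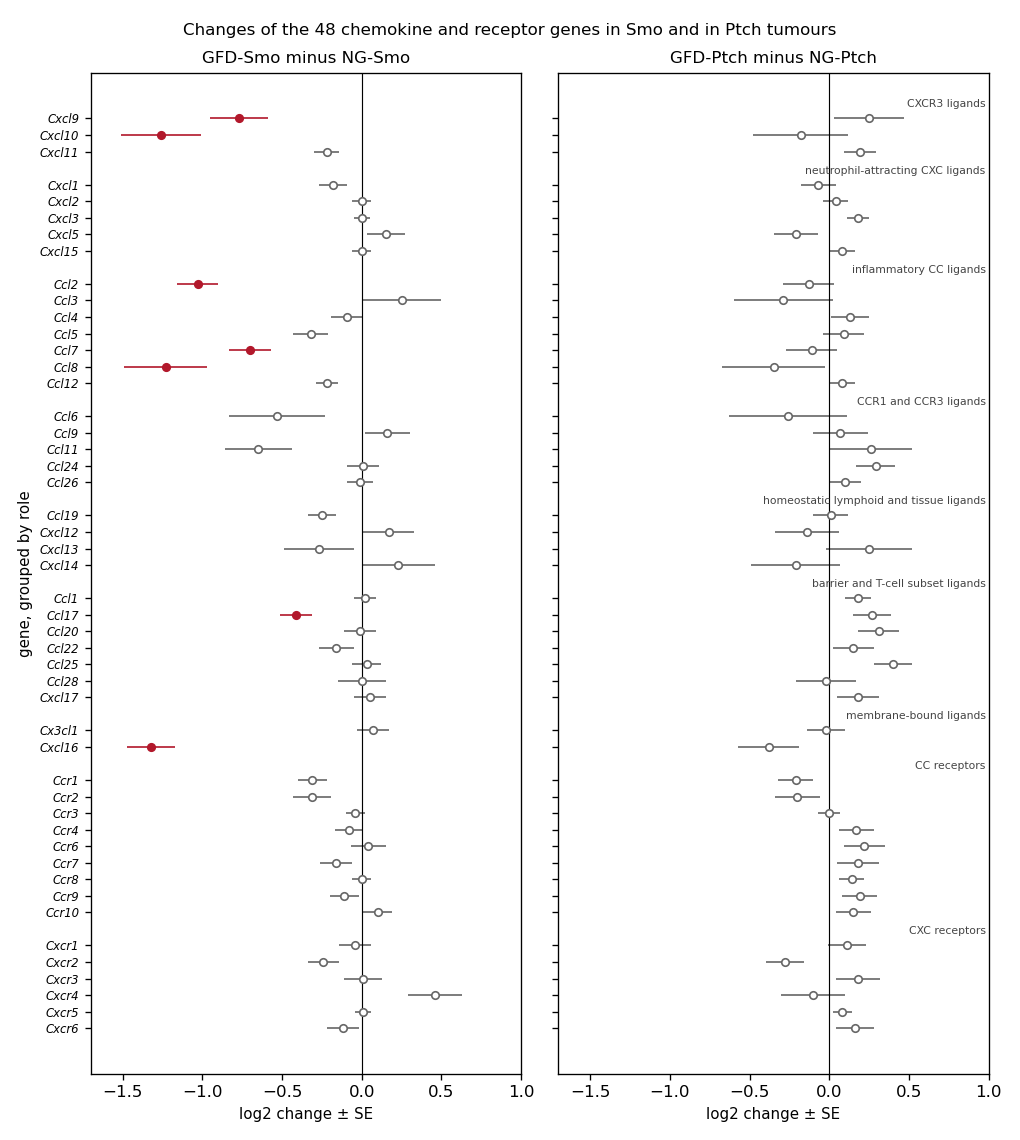
Log2 change ± SE (horizontal axis) of the 48 genes, grouped by role, for GFD-Smo minus NG-Smo (left) and GFD-Ptch minus NG-Ptch (right), with filled red points for genes called at an adjusted p under 0.05. On the left 7 ligands are called and all are below 0, on the right none is.

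GFD-Smo was then set against GFD-Ptch, where 10 of the 48 genes were called (20.8%), against 15.6% of all genes. Of them 3 were higher (6.25%, against 8.5% of all genes) and 7 lower (14.6%, against 7.1% of all genes). Higher in GFD-Smo were Ccl3, Cxcl14, a chemokine of epithelium and brain, and Cxcl5, a neutrophil attractant. Lower were Ccl2, Ccl5, Ccl7, Ccl11, Ccl17, Ccl19 and the receptor Ccr7, which binds Ccl19 and leads dendritic cells and T cells to lymph nodes. The median change was -0.17 over the 48 genes and -0.06 over all genes, and arrays were wholly apart for 57.1% of all genes. The Y-linked genes averaged 9.84 in each GFD-Ptch array. In GFD-Smo they averaged 10.05 in replicate 2 and 5.45 to 5.48 in the others, so the groups differ in this too.

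Ccl3 read 9.46, 9.06, 9.54 and 9.3 in GFD-Smo, against 8.13 and 7.58 in GFD-Ptch. The groups did not overlap, and the GFD-Ptch arrays differed from each other by more than the GFD-Smo arrays did. Its mean was 9.34 ± 0.21 in GFD-Smo (n = 4) and 7.86 ± 0.39 in GFD-Ptch (n = 2), a change of 1.49 (SE 0.31, limma adjusted p = 0.00499) or 2.8-fold. Cxcl14 read 9.03, 9.19, 9.16 and 9.3 in GFD-Smo, against 8.4 and 8.09 in GFD-Ptch, a change of 0.92 (SE 0.28, limma adjusted p = 0.03576). Cxcl5 read 6.36, 6.16, 6.26 and 6.4 in GFD-Smo, against 5.9 and 5.76 in GFD-Ptch, at dim levels throughout (change 0.47, SE 0.14, limma adjusted p = 0.04037).

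Ccl5 read 7.79, 7.62, 7.59 and 7.63 in GFD-Smo, against 8.24 and 8.12 in GFD-Ptch, a change of -0.52 (SE 0.13, limma adjusted p = 0.01572). Ccl19 read 7.65, 7.61, 7.71 and 7.64 in GFD-Smo, against 8.13 and 8.03 in GFD-Ptch, a change of -0.43 (SE 0.11, limma adjusted p = 0.02185). Both were apart, with narrow groups. Ccr7 read 8.09, 8.0, 7.9 and 7.99 in GFD-Smo, against 8.37 and 8.42 in GFD-Ptch, a change of -0.40 (SE 0.13, limma adjusted p = 0.04602). Ccl2 changed by -0.65, Ccl7 by -0.52, Ccl17 by -0.47 and Ccl11 by -0.80, with limma adjusted p of 0.01578, 0.04532, 0.01743 and 0.04885. Cxcl16 (-0.55), Cxcl10 (-0.75) and Cxcl9 (-0.53) were not called here (limma adjusted p = 0.05846, 0.09971 and 0.1127).

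Microglia markers differed in the same pair of groups. Of 11 measured, 6 were higher in GFD-Smo (8.5% of all genes were) and 0 lower, with a median change of 0.77, and the list's mean level was 8.74 to 8.82 in GFD-Smo and 7.83 to 8.12 in GFD-Ptch. The largest changes were those of Fcrls (1.95, limma adjusted p = 0.003105), P2ry13 (1.56) and the colony-stimulating factor receptor gene Csf1r (1.31). Cx3cr1, the receptor of Cx3cl1, averaged 9.88 ± 0.03 in GFD-Smo (n = 4) and 8.91 ± 0.14 in GFD-Ptch (n = 2), a change of 0.97 (limma adjusted p = 0.009123). Cx3cl1 itself read 7.9 to 8.07 in GFD-Smo and 7.8 to 7.94 in GFD-Ptch and was not called. Of 12 monocyte and macrophage markers 0 were called, of 10 dendritic cell markers 2 were lower, one of them Ccr7, and of 10 astrocyte markers 9 were higher. Of 24 genes of chemokine receptor signalling 6 were higher, led by Stat3 at 0.92 and Rgs2, a brake on G protein signals, at 0.91. The part of these cells in the chemokine differences was not tested.

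Without GFD-Ptch replicate 1 the count of called genes was 2, Ccl3 and Ccl17. Without GFD-Ptch replicate 2 it was 1, Cxcl16, which was not among the 10 called with all arrays. Ccl3 lost its call only without GFD-Ptch replicate 2 (change 1.21, adjusted p = 0.1047), as did Ccl17 (adjusted p = 0.2091), while Ccl2, Ccl5 and Ccl19 lost theirs without either GFD-Ptch array (adjusted p up to 0.1208). Ccl7, Ccl11, Ccr7 and Cxcl14 lost theirs without any single GFD-Ptch or GFD-Smo array, Cxcl5 without any of these other than GFD-Smo replicate 2 (adjusted p up to 0.2948), and all of these 5 but Cxcl14 without some arrays of other groups too. The change of Cxcl16 was -0.24 without GFD-Ptch replicate 1 (adjusted p = 0.4694) and -0.87 without replicate 2 (adjusted p = 0.03221), and it was called with replicate 2 of GFI-Ptch or replicate 4 of NG-Smo left out too, as was Cxcl10 without NG-Smo replicate 2 (adjusted p = 0.03666). With the gender label as a covariate Cxcl14 had a change of 0.58 (limma adjusted p = 0.1364). Ccl5, Ccl7, Ccl11 and Cxcl5 lost their calls as well (limma adjusted p = 0.06714 to 0.08374). The counts were 5, 6, 5 and 5 without GFD-Smo replicates 1 to 4 and 6 without NG-Ptch replicate 2. They were 13 without the transplanted tumour, adding Ccl4, Ccl20 and Ccl25, and 13 without NG-Smo replicate 4, adding Ccl20, Ccl25 and Cxcl16.

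**Figure D4:**
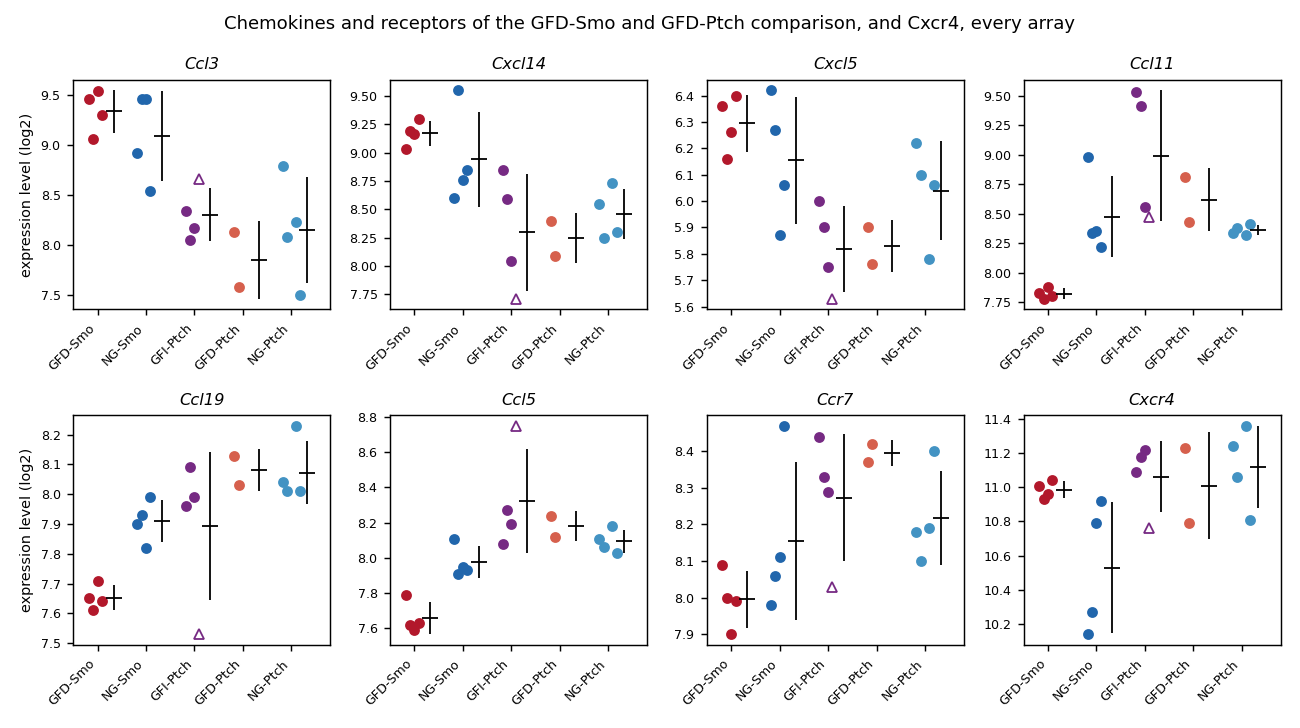
Log2 expression level (vertical axis) of 7 genes called between GFD-Smo and GFD-Ptch, and of Cxcr4, in the 5 groups, as points per array (open triangle, transplanted tumour) with mean ± SD. Ccl3 is at 9.06 to 9.54 in GFD-Smo, against 8.13 and 7.58 in GFD-Ptch, and 2 of the 4 NG-Smo arrays read 9.46.

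Between NG-Smo and NG-Ptch, 0 of the 48 genes were called, against 1.04% of all genes (0.607% higher and 0.436% lower), and 11 of the 48 and 2116 of all genes had an unadjusted limma p under 0.05. Ccl3 read 8.92, 9.46, 9.46 and 8.54 in NG-Smo, against 8.79, 8.08, 8.23 and 7.5 in NG-Ptch, a change of 0.95 (SE 0.25, limma adjusted p = 0.1028). The groups overlapped through the lowest NG-Smo and the highest NG-Ptch array. Cxcr4 read 10.14, 10.27, 10.79 and 10.92 in NG-Smo, against 11.24, 11.06, 11.36 and 10.81 in NG-Ptch, a change of -0.59 (SE 0.17, limma adjusted p = 0.1307). Without NG-Smo replicate 4 both were called, Ccl3 at 1.13 (adjusted p = 0.0357 by limma) and Cxcr4 at -0.72 (adjusted p = 0.03889 by limma), and without NG-Ptch replicate 1 Ccl3 was called at 1.16 (adjusted p = 0.04029 by limma). Of 10 granule neuron lineage markers 0 were called and 1 had a change above 0, with a median change of -0.27 and a list mean of 11.39 to 11.64 in NG-Smo and 11.8 to 11.85 in NG-Ptch. The part of that lineage in the Cxcr4 values was not tested. Cx3cr1 was higher in NG-Smo (0.91, limma adjusted p = 0.02777), as were Cybb (0.77), Ptprc (0.56) and Il1a (1.20, limma adjusted p = 0.03459). Their lists had 2 of 11 microglia markers, 2 of 12 monocyte and macrophage markers and 1 of 17 inducers of chemokine transcription called higher. None of these lists had a gene called lower, and over all genes the shares were 0.607% higher and 0.436% lower. Arrays were apart for 2 of the 48 genes, Ccl19 and Cxcr2, both lower in NG-Smo, where all genes gave 2.97% above, 2.68% below and 5.65% together. The 7 ligands that had differed between the Smo groups all overlapped here, such as Ccl2 at 8.71 to 8.87 in NG-Smo and 8.31 to 8.76 in NG-Ptch.

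In the Ptch tumours, GFI-Ptch differed from NG-Ptch in 0 of the 48 genes, against 0% of all genes called, and 8 of the 48 and 1701 of all genes had an unadjusted limma p under 0.05. Cxcl13, the B-cell attractant of lymphoid follicles, read 6.68, 7.05, 5.97 and 7.42 in GFI-Ptch, against 5.86, 6.07, 5.85 and 5.99 in NG-Ptch. The transplanted tumour was the highest and replicate 3 lay among the NG-Ptch arrays. The Cxcl13 change was 0.84 (SE 0.22, limma adjusted p = 0.239), or 0.62 without the transplanted tumour. Cxcl10 read 8.44, 8.98, 8.36 and 9.21 in GFI-Ptch, against 8.44, 7.91, 8.05 and 7.62 in NG-Ptch. The groups overlapped at the highest NG-Ptch array. The Cxcl10 change was 0.74 (SE 0.25, limma adjusted p = 0.3863), or 0.59 without the transplanted tumour. Ccl11 read 9.53, 9.41, 8.56 and 8.47 in GFI-Ptch, against 8.34, 8.38, 8.32 and 8.41 in NG-Ptch, a change of 0.63 (SE 0.21, limma adjusted p = 0.3874). The Ccl11 groups were apart, as were those of Ccl25 and Cxcl11, all 3 higher in GFI-Ptch, where 2.05% of all genes were apart in that direction and 4.86% in either. Leaving out the transplanted tumour gave 0 called genes of the 48 as well.

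**Figure D5:**
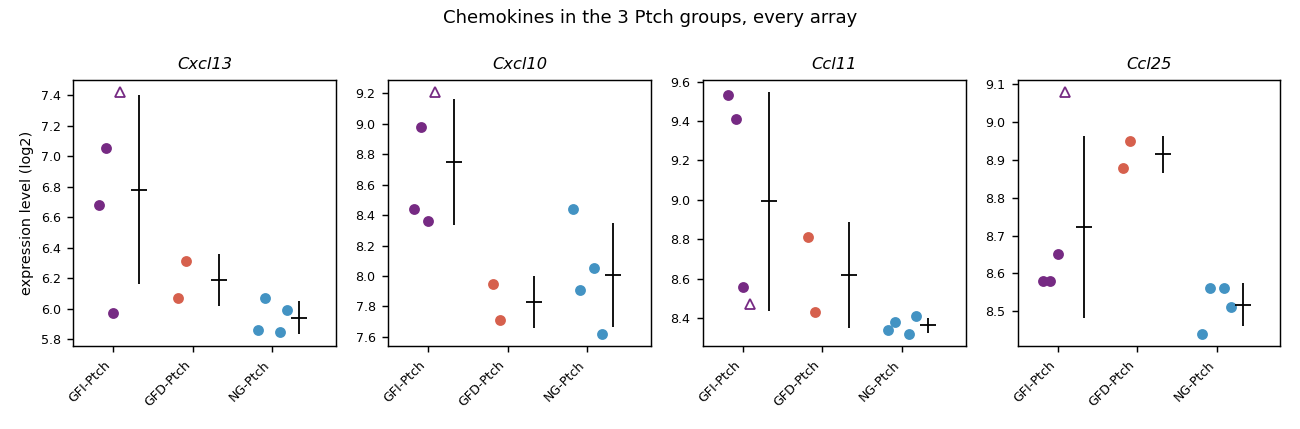
Log2 expression level (vertical axis) of Cxcl13, Cxcl10, Ccl11 and Ccl25 in the 3 Ptch groups, as points per array (open triangle, transplanted tumour) with mean ± SD. For Cxcl13, Cxcl10 and Ccl25 the transplanted tumour is the highest array (7.42, 9.21 and 9.08). For Ccl11 replicates 1 and 2 of GFI-Ptch are the highest (9.53 and 9.41).

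GFI-Ptch and GFD-Ptch differed in 0 of the 48 genes, against 0.00502% of all genes, and 3 of the 48 and 1952 of all genes had an unadjusted limma p under 0.05. Cxcl10 had a change of 0.92 (SE 0.30, limma adjusted p = 0.3593), or 0.77 without the transplanted tumour. It read 7.95 and 7.71 in GFD-Ptch, below all GFI-Ptch arrays. It was 1 gene of the 48 wholly higher in GFI-Ptch, beside 4 wholly lower, Ccl17, Ccl28, Cxcl3 and Cxcr5, where all genes gave 6.98% and 9.48%. Ccl28, a mucosal ligand, read 6.25, 6.14, 6.14 and 5.91 in GFI-Ptch, against 6.48 and 6.38 in GFD-Ptch.

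Cxcl1 and Cxcl2, both neutrophil attractants, had group means of 7.11 to 7.31 and 5.61 to 5.68 over the 5 groups. Cxcl12, which holds progenitors through Cxcr4, read 7.92 to 8.38 in GFD-Smo, 7.54 to 8.35 in NG-Smo, 7.73 to 8.19 in GFI-Ptch, 7.97 and 8.43 in GFD-Ptch and 8.13 to 8.52 in NG-Ptch. Ccr1, the receptor of Ccl3 and Ccl6, averaged 5.51 in GFD-Smo, 5.82 in NG-Smo, 5.72 in GFI-Ptch, 5.66 in GFD-Ptch and 5.87 in NG-Ptch. Cxcr2, the receptor of neutrophil attractants, averaged 5.40, 5.64, 5.63, 5.62 and 5.90 in the same order of groups, all dim.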

How the data were processed

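RNA of 18 mouse medulloblastomas had been labelled as biotin-cDNA and hybridised to Affymetrix Mouse Gene ST 1.0 arrays, per the labels' protocols. The authors deposited log2 values for 35556 probe sets, none of them missing, between 4.219 and 14.318. The log base was read from the values. Partek 6.6 is named in the submitters' processing notes, while background correction, normalization and probe summary are not given in the sources used here. Precision is limited by the number of arrays. In the platform annotation 21789 probe sets had 1 symbol, 1621 several and 12146 none. One probe set per gene, the brightest on average, gave 19938 genes, and all 48 member symbols were the same in RefSeq.

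One limma fit (version 3.58.1, R 4.3.3) covered all arrays (5 group means, 7 contrasts, 13 residual and 2.448 prior degrees of freedom, two-sided moderated tests, Benjamini-Hochberg adjustment over all genes, call at an adjusted p under 0.05). Motifs, counts and plots came from Python 3.11.15. The fit was tested on simulated data. The members and lists were chosen with earlier results of these data known. Any member could be named with its level. Full statistics went to members called in a comparison (up to 12 by size of change) and to at most 4 uncalled members of a role list with the largest change, and of the pathway and marker lists up to 4 called genes were named by size. Outside that rule, Ifng, Myd88, Irf5 and the uncalled Csf1r and Cx3cr1 were chosen after their values were seen. Replicate numbers did not pair the samples: 29 same-number pairs in different groups had deviations correlated at -0.31 to 0.187, and 99 other pairs at -0.379 to 0.304. Alternatives were quantile normalization, leaving out dim genes, array weights, the gender label as a covariate, a replicate block and the compared groups only. Others were the mean of probe sets, each array left out in turn and, added after seeing the data, both arrays that stood apart left out.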

Additional observations from a re-analysis of the deposited data

Results flagged for a closer look

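The change between GFD and NG differed between Smo and Ptch tumours, by limma's test of the difference, for Ccl17 (-0.68, adjusted p = 0.02609), Ccl2 (-0.90, adjusted p = 0.02884) and Cxcl16 (-0.94, adjusted p = 0.04352). GFD-Smo was lower than NG-Smo in 4 of 4 arrays for each. None of these differences was called without GFD-Smo replicate 2, with the gender label as a covariate or with the replicate block. Subtype cannot be told apart from the driver in Smo, nor from sex by Y-linked genes in Ptch.

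A single array lay far from the rest of its group, by Dixon's criterion at 0.829 for 4 arrays, in 3 of the 76 sets of 4 arrays examined (19 members in 4 groups), no more than the roughly 1 in 20 that chance gives. Ccl11 read 8.98 in NG-Smo replicate 1, against 8.22 to 8.35 in the other NG-Smo arrays. Ccl19 read 8.23 in NG-Ptch replicate 4, against 8.01 to 8.04 in the others. Ccl25 read 9.08 in the transplanted tumour, against 8.58 to 8.65 in the other GFI-Ptch arrays.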

How the results depend on the processing

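No called change of a member turned its sign under any alternative or left-out array. Small uncalled ones did, such as Ccl1 in GFD-Smo minus NG-Smo (0.02, and -0.01 to 0.08 with single arrays left out). Of 48 genes, 7 were called for GFD-Smo minus NG-Smo, 0 for GFD-Ptch minus NG-Ptch, 0 for GFI-Ptch minus NG-Ptch, 0 for GFI-Ptch minus GFD-Ptch, 0 for NG-Smo minus NG-Ptch, 10 for GFD-Smo minus GFD-Ptch and 3 for the difference between models. With each array left out in turn these counts ran from 5 to 11, 0 to 1, 0 to 0, 0 to 0, 0 to 2, 1 to 13 and 0 to 6. With array weights, which down-weight the transplanted tumour and NG-Smo replicate 4, they were 12, 1, 2 (Ccl11 and Cxcl13, higher in GFI-Ptch), 0, 1, 16 and 7. With both of those arrays left out they were 12 (1 higher, Cxcr4, and 11 lower), 1, 0, 0, 2, 17 and 6. With only the compared groups fitted, 11, 1, 23 and 7 were called for GFD-Smo minus NG-Smo, GFD-Ptch minus NG-Ptch, GFD-Smo minus GFD-Ptch and the difference. With dim genes left out, 6 of the 48 were tested and 1, 4 and 1 were called for GFD-Smo minus NG-Smo, GFD-Smo minus GFD-Ptch and the difference, fewer genes being tested. The replicate block gave 8, 4 and 0 called for these 3, although the numbers do not pair the samples. The gender label as a covariate gave 7, 7 and 0. The cause was not tested where none is named. Over all genes, the calls for GFD-Smo minus NG-Smo were 1058, with 595 to 1740 under the alternatives and 643 to 1553 with single arrays left out. For GFD-Smo minus GFD-Ptch they were 3110 (2051 to 6709, and 997 to 4376), for the difference 759 (188 to 1484, and 248 to 1285), for NG-Smo minus NG-Ptch 208 (34 to 1169, and 75 to 384), for GFD-Ptch minus NG-Ptch 2 (0 to 689, and 1 to 144), for GFI-Ptch minus GFD-Ptch 1 (0 to 64, and 1 to 47) and for GFI-Ptch minus NG-Ptch 0 (0 to 180, and 0 to 8).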
